A study of Mus musculus with 4 samples.

Results

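Myelin is the stack of membrane that oligodendrocytes wrap around axons in the central nervous system, and the 7 genes described here, Mal, Mobp, Mag, Mog, Mbp, Cldn11 and Aspa, encode proteins that build it, join its layers or feed its lipid synthesis. They were taken by symbol from the probe annotation of the array (MAL, MOBP, MAG, MOG, MBP, CLDN11 and ASPA), which gave 20 probes for these 7 genes among 45281 probes for 30854 gene symbols. The symbols themselves had been picked from the comparison of the lobes in these same samples, so their difference between the lobes is given as a description without a test. RNA was measured in the cerebellum of Swiss mice at postnatal day 7, with 2 samples of the anterior lobes and 2 samples of the posterior lobes, each hybridized to 1 Illumina mouse WG-6 array. No genotype is given and no animal was treated, and the labels do not say whether the samples came from separate or pooled mice, or whether the anterior and posterior samples of one replicate number came from the same mice. The spread between replicates may therefore be technical. With 2 samples against 2, the smallest two-sided p an exact permutation test of a single value can give is 0.33.

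In the cerebellum, myelin is laid down after birth on the axons of Purkinje cells and on the fibers that enter the white matter, as oligodendrocyte precursors stop dividing and switch on the genes of the sheath. Compact myelin is formed when the cytoplasmic faces of the membrane are drawn together by basic proteins and the outer faces by proteolipids. Other proteins hold the innermost layer to the axon, close the spaces between the layers, or sit on the outside of the sheath. SOX10 and MYRF are the transcription factors best known for turning these genes on.

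Upstream sequences of the genes were read from RefSeq (GRCm38.p6), where 6 of the 7 genes had an entry with 8 start sites in all. Those of Mobp, Mag and Mog are shown to compare genes that differed between the lobes, each with the 250 bases before the start site, 5′ to 3′ on the strand of the gene. Capitals mark the letters ACAAAG or CTTTGT, the same site read on either strand and the core that SOX proteins bind, and CTGGCAC or GTGCCAG, a core bound by MYRF. CAGCTG, an E-box read the same on both strands, was searched too.
Mobp, chr9:120149492-120149741, plus strand: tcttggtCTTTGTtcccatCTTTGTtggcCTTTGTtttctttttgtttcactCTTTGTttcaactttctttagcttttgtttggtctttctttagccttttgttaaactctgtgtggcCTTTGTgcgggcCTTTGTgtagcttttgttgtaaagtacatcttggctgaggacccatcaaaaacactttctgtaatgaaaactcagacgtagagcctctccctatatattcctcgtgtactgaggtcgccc
Mag, chr7:30914864-30915113, minus strand: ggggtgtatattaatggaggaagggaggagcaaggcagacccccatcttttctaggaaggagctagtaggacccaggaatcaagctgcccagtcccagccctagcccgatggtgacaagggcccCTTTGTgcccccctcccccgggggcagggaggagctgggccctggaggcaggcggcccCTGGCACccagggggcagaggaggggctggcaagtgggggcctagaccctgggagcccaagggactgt
Mog, chr17:37023399-37023648, minus strand: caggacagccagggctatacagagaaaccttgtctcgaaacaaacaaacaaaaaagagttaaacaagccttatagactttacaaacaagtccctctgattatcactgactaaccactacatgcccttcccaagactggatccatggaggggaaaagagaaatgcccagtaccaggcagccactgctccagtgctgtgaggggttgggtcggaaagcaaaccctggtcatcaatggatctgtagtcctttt
The Mobp sequence held 6 matches to the SOX letters, starting 243, 231, 221, 198, 132 and 120 bases before the start site. The Mag sequence shown, that of 1 of its 3 start sites, held 1 match to the SOX letters at 126 bases. It held 1 to the MYRF letters at 68 bases before the start site. Counted from start site 2 of Mag, the same matches lay at 67 and 9 bases. The window of its start site 3 held no match to any of the letters. No match to any of the letters was present in this window of Mog, nor in those of Mal and Cldn11, and the window of Aspa held 1 E-box at 110 bases. Among the 32851 upstream sequences of the same length, 16.5% held the SOX letters, 4.19% the MYRF letters and 13% the E-box. Such matches describe the letters in the window and were not tested for binding.

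The 4 arrays were alike in their range, with median intensities between 110.2 and 129.6 and with 46.5% to 47.6% of the probes detected. Anterior replicate 2 stood apart in 137 probes that were over 2-fold below all the other arrays and in 9 that were over 2-fold above them. Posterior replicate 1 stood above the others by that margin in 15 probes and below them in 3, and none of these probes belonged to the 7 genes. Of the 20 probes, 16 were detected on at least 2 arrays with a detection p under 0.05 and entered the comparison, and they covered 6 of the 7 genes.

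All 6 detected myelin genes had a lower signal in the posterior lobes. In each of the 16 probes, both posterior arrays lay below both anterior arrays, which was the case for 21.5% of all 21726 probes tested. The median log2 difference over the 16 probes, posterior minus anterior, was -1.12, against 0.0023 over all tested probes. The differences ranged from -1.53 to -0.18, with a median standard error of 0.11 and with an SD of 0.23 over all probes. The criterion of the study's methods (a fold change over 1.2 and an unadjusted p under 0.05) was passed as lower in the posterior lobes by 5% of all probes and as higher by 3.3%. It was not applied to the 16 probes, since their difference had been used to pick the genes. In whole lobes, fewer oligodendrocytes and less myelin RNA per oligodendrocyte cannot be told apart.

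**Figure D1:**
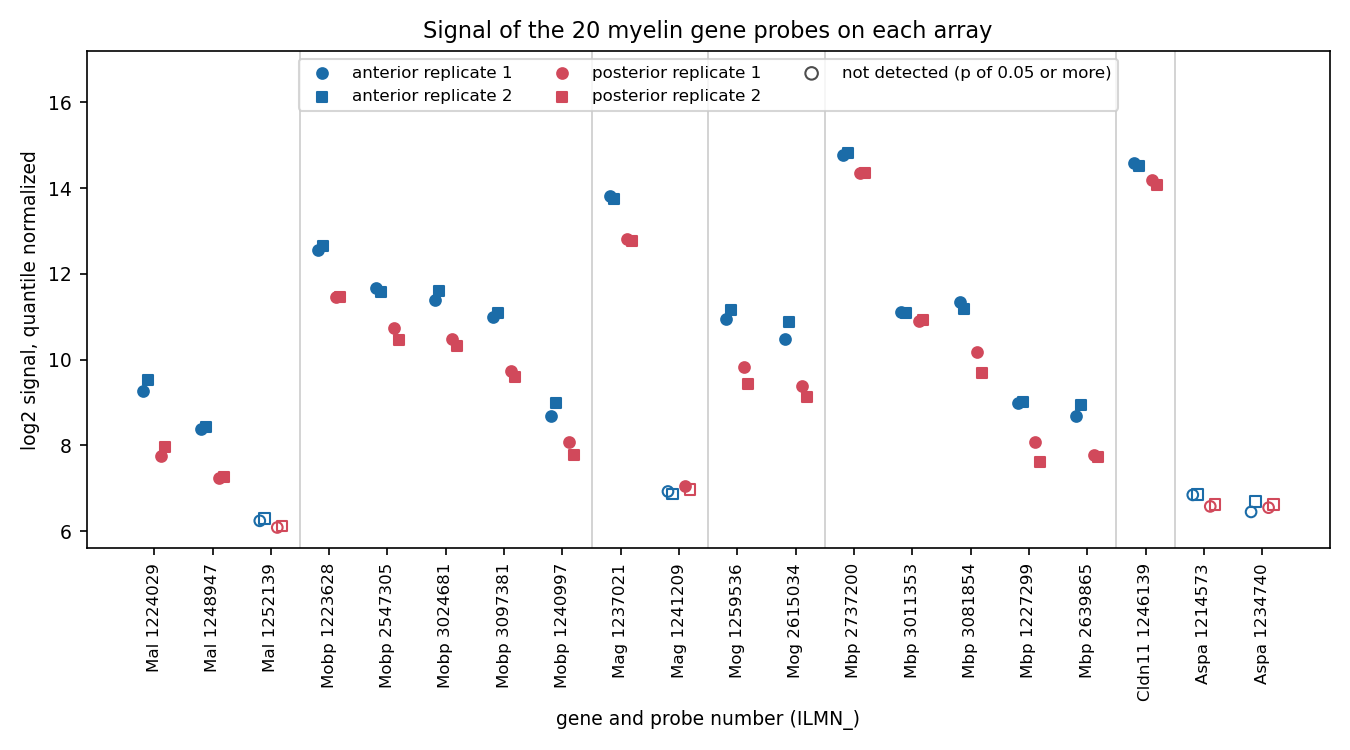
Signal of the 20 probes of the 7 myelin genes on each of the 4 arrays, as log2 of the quantile normalized intensity, with blue for anterior and red for posterior samples, circles for replicate 1 and squares for replicate 2, and open symbols where the probe was not detected. In the 16 tested probes both red symbols lie below both blue ones, and the 4 probes near the bottom of the scale, of Mal, Mag and Aspa, were left out of the comparison.

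Among the proteins of compact myelin, Mal showed the widest gap. It encodes a small proteolipid that travels with the lipid rafts of the sheath. Its brighter probe, ILMN_1224029, read intensities of 671 and 685.4 in the anterior samples and of 215.1 and 250.4 in the posterior samples. On the normalized log2 scale this was 9.39 ± 0.18 against 7.87 ± 0.14 (SD, n = 2 each), a difference of -1.53 with a standard error of 0.15. The posterior signal was thus 34.7% of the anterior signal, and the pair of samples numbered 1 gave -1.50 and the pair numbered 2 gave -1.55. The second probe, ILMN_1248947, read 364.4 and 315.7 in the anterior and 150.7 and 155.8 in the posterior samples, with a log2 difference of -1.15 (SE 0.11). In the posterior samples it was only just above background, with a detection p of 0.026 in both. The third probe, ILMN_1252139, read 68.4 to 79.6 and was not detected in any sample.

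Mobp, a small basic protein of the compact layers, was measured by 5 probes, with drops between -1.38 and -0.91. The brightest probe, ILMN_1223628, read 6468.5 and 6010.2 in the anterior and 2735.5 and 2875.8 in the posterior samples, or 12.60 ± 0.072 against 11.46 ± 0.012 on the log2 scale (SD, n = 2 each). Its difference was -1.14 (SE 0.075), which left 45.3% of the anterior signal. The probe ILMN_3097381 fell further, from 2203 and 2030.1 in the anterior to 820.3 and 782.7 in the posterior samples, with a difference of -1.38 (SE 0.10). The remaining probes ILMN_3024681, ILMN_2547305 and ILMN_1240997 had differences of -1.10, -1.02 and -0.91. The last of these was also the dimmest, at 450.7 and 464.9 in the anterior and 268.2 and 220.6 in the posterior samples, and its replicate pairs were far apart with -0.61 and -1.20. With neqc, a normalization that subtracts background, the same probes ILMN_3024681, ILMN_2547305 and ILMN_1240997 had -1.14, -1.06 and -1.14. No probe of Mobp had overlapping groups.

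Mbp, the main basic protein that seals the cytoplasmic faces of the sheath, gave answers that depended on the probe. The brightest probe, ILMN_2737200, read 29259.2 and 27722.4 in the anterior and 20474.2 and 21279 in the posterior samples, which left 73.3% of the anterior signal (difference -0.45, SE 0.052). The probe ILMN_3081854 read 2779 and 2146.7 in the anterior and 1124.6 and 833.5 in the posterior samples, and its difference of -1.32 (SE 0.17) left 40% of the signal. The probes ILMN_1227299 and ILMN_2639865 were close to it, with -1.15 (SE 0.18) and -1.07 (SE 0.13). The 5 probes of this 1 gene therefore spanned most of the range seen over the 16 probes. The smallest drop was that of ILMN_3011353, which read 2361.9 and 2030 in the anterior and 1846.7 and 1979.9 in the posterior samples. Its difference of -0.18 (SE 0.081) was a 1.13-fold one, so that it was the 1 tested probe of these genes that did not reach a fold change of 1.2. Mbp is transcribed into several spliced forms, and which of them each probe reads is not given in the sources used here.

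Mag and Mog encode immunoglobulin-like proteins at opposite faces of the sheath. Mag lies in the membrane next to the axon and binds sialic acids on it. Its probe ILMN_1237021 read 15486.4 and 12805.9 in the anterior and 7034.7 and 7071.2 in the posterior samples, or 13.78 ± 0.052 against 12.79 ± 0.027 on the log2 scale (SD, n = 2 each). The difference was -0.99 (SE 0.062), the replicate pairs gave -1.01 and -0.98, and the posterior signal was 50.2% of the anterior one. The other Mag probe, ILMN_1241209, read 106.2 to 134.2 and passed the detection limit in 1 sample only.

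Mog is placed on the outermost layer and is a late marker of oligodendrocyte maturation. Both of its probes gave nearly the same value, with -1.41 (SE 0.16) for ILMN_1259536 and -1.42 (SE 0.17) for ILMN_2615034. The first read 2126.8 and 2120.9 in the anterior and 881.4 and 695.8 in the posterior samples, and the second read 1544.1 and 1750.6 in the anterior and 653.6 and 561.1 in the posterior samples. The posterior signal was 37.5% and 37.4% of the anterior signal. The size of the drop was not the same in the replicate pairs, being -1.11 and -1.09 in replicate 1 and -1.72 and -1.74 in replicate 2. In both pairs the posterior sample was the lower one.

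Cldn11 encodes the claudin of the tight junctions that run between the turns of the myelin membrane. Its single probe, ILMN_1246139, read 25817.8 and 21601 in the anterior and 18594.9 and 17444.6 in the posterior samples, or 14.55 ± 0.038 against 14.12 ± 0.089 on the log2 scale (SD, n = 2 each). The difference of -0.42 (SE 0.064) was the smallest among the detected genes when each gene was represented by its brightest probe, and left 74.6% of the anterior signal. Among the 301 tested probes with a mean log2 signal over 14, the brightest Mbp probe and the Cldn11 probe had the most negative differences, and the next was -0.29. Both genes had been picked for a difference between the lobes, so this order is a description only. The scanner's upper limit is not given in the sources used here, and the highest intensity on any array was 39804.7.

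Aspa encodes aspartoacylase, the oligodendrocyte enzyme that splits N-acetylaspartate and so frees acetate for myelin lipids. Neither of its probes was detected in any sample. ILMN_1214573 read 122.9 and 105.5 in the anterior and 95.7 and 100.8 in the posterior samples, with detection p-values of 0.096 to 0.21. ILMN_1234740 read 92.5 and 94.8 in the anterior and 93.8 and 100.3 in the posterior samples, with detection p-values of 0.16 to 0.25. No fold change is given for Aspa, since both lobes were at background. Of the other genes of N-acetylaspartate and acetate handling, 5 were tested, and Nat8l, the enzyme that makes N-acetylaspartate, and Acy3, a related acylase, were past the criterion as lower in the posterior lobes, against 4.46% of all 15615 genes when each was represented by its brightest probe. Their log2 differences were -0.27 (SE 0.091) and -0.41 (SE 0.12), with limma adjusted p of 0.42 and 0.36 over all probes. Nat8l no longer passed without normalization or without any 1 of anterior replicate 1, posterior replicate 1 and posterior replicate 2, and Acy3 no longer passed without posterior replicate 2 or with the methods' t-test.

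**Figure D2:**
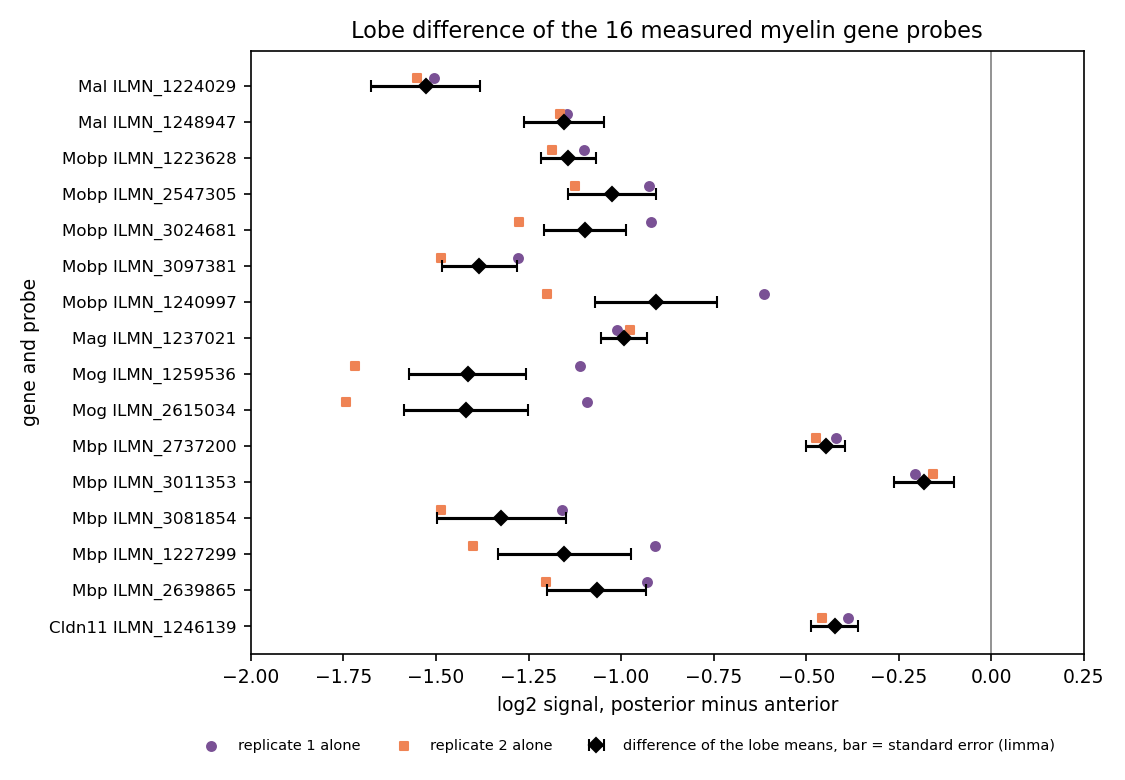
Log2 difference, posterior minus anterior, of the 16 tested probes, with a diamond and a bar of 1 standard error from limma for the difference of the lobe means, and a circle and a square for the sample pairs numbered 1 and 2. All symbols lie left of 0, the Cldn11 probe and the Mbp probes ILMN_2737200 and ILMN_3011353 lie closest to it, and the pairs are farthest apart in Mog and in the dimmest Mobp probe.

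The order of the drops among all probes shows how far the genes stood from the bulk of the array. Ranked from the most negative difference, the brighter Mal probe was 5th of 21726, the Mog probes 9th and 10th, and the Mobp probe ILMN_3097381 11th. Mag was 49th, the brightest Mbp probe 483rd, Cldn11 570th and the weakest Mbp probe 3142nd. Across the whole array 47 probes, or 0.216%, were lower by 2-fold or more in the posterior lobes. These ranks come from the values that chose the genes. Neighbours in this order were within their standard errors of each other, such as Mal and Mog, while Mag, with a standard error of 0.062, and Cldn11, with 0.064, were separated by 0.57 on the log2 scale.

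The difference between replicate numbers was tested with the lobe as a covariate. That fit leaves 1 residual degree of freedom before limma shares the spread over probes. The replicate difference is part of the spread within the lobes, so picking genes that differ clearly between the lobes can favour small replicate differences. The counts for these probes are therefore not independent of the choice. The median of replicate 1 minus replicate 2 over the 16 probes was -0.0022 on the log2 scale, with a range of -0.23 to 0.33. In 8 of the 16 probes the value was higher in replicate 1, against 46.2% of all probes. The criterion was passed by 1 probe, Mbp ILMN_3081854, with 0.33 (SE 0.11), while 9.9% of all probes passed it. Its adjusted p from limma was 0.27, the smallest among the 16 probes, and no probe of these genes passed an adjusted p under 0.05, against 0.833% of all probes.

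The median of the 16 probes was 11.05 and 11.12 in the anterior and 10.00 and 9.64 in the posterior samples. The posterior samples thus stood further apart than the anterior ones. Within the lobes, the median of replicate 1 minus replicate 2 was -0.073 in the anterior samples, where 5 of 16 probes were higher in replicate 1. It was 0.13 in the posterior samples, where 11 of 16 were higher. The drop was the larger one in replicate 2 for 14 of the 16 probes, and the median difference between the lobes was -0.97 in replicate 1 and -1.20 in replicate 2. The difference between these medians was not tested.

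**Figure D3:**
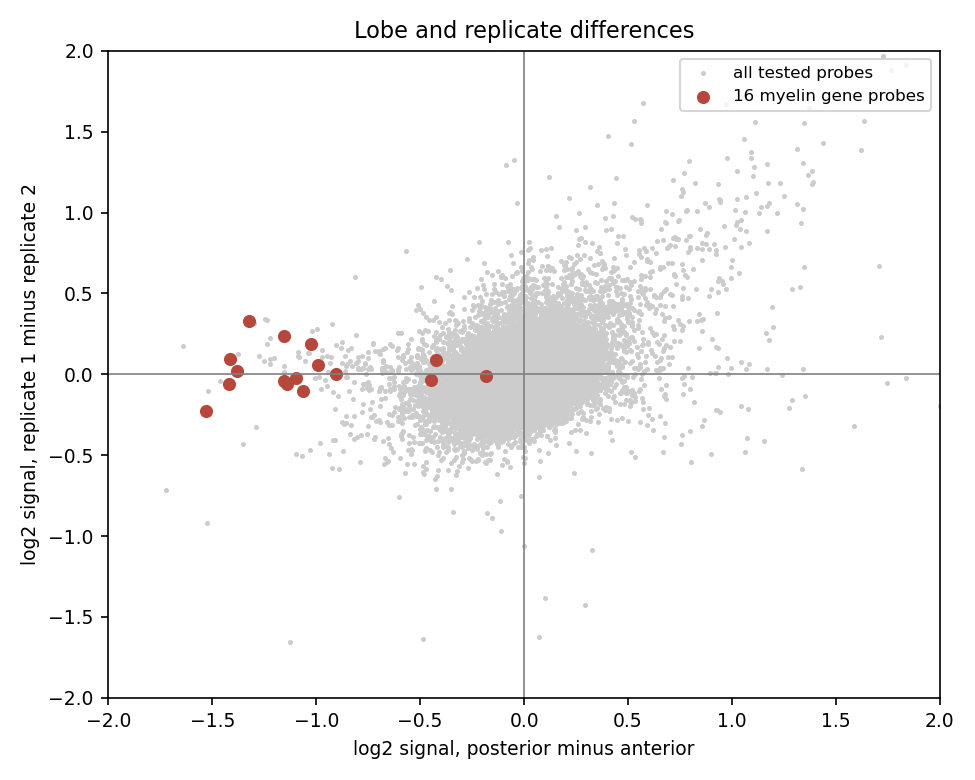
Each tested probe by its log2 difference between the lobes (posterior minus anterior, horizontal axis) and between the replicates (replicate 1 minus replicate 2, vertical axis), with all probes in grey and the 16 probes of the myelin genes in red. The red points spread from -1.53 to -0.18 along the lobe axis and from -0.23 to 0.33 along the replicate axis, and 37 probes lie outside the axes, which end at 2 in either direction.

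To learn whether the rest of the myelin program went the same way, 64 further oligodendrocyte genes were listed as membrane proteins, proteins of the cytoplasm or secreted, lipid enzymes and transcription factors. Of these, 47 were tested, each by its brightest probe. In the posterior lobes 21 were lower past the criterion and none was higher, against 4.46% and 3.45% of all genes. A negative difference was found for 42 of the 47 genes, against 47.7% of all genes, and for 33 both posterior samples were below both anterior ones, against 20.8% of all genes. The median log2 difference was -0.27, against 0.0079 over all genes. After adjustment over all probes with limma, 2 of the 47, both lipid enzymes, had an adjusted p under 0.05, while 0.032% of all genes did so in that direction. This count of 2 became 0 with the methods' t-test and with limma's trend option off. It also moved when single arrays were left out, which leaves a lobe without a replicate. Without anterior replicate 1, not all of the listed genes that passed the criterion were lower. The count of 21 dropped to 13 without posterior replicate 2 and was 26 without anterior replicate 2, the array with the most probes apart from the others. The lists were made with earlier results of these samples known.

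Among the membrane proteins 8 of 14 tested fell. Of those that fell, Opalin, a transmembrane protein of the paranodal loops, had a log2 difference of -0.94 (SE 0.11, limma adjusted p 0.068). It read 662.6 and 568.9 in the anterior and 316.1 and 313.7 in the posterior samples. Cnp, the phosphodiesterase that keeps cytoplasmic channels in the sheath open, had -0.86 (SE 0.13). A230069A22Rik, now named Tmem88b, had -0.81, the tetraspanin Tspan2 had -0.57, plasmolipin (Pllp) had -0.44 and Evi2a had -0.38. The 6 that did not pass were Ninj2, Nfasc, Omg, Cd9, Cd82 and Pmp22, with -0.33, -0.27, -0.17, -0.11, -0.077 and -0.013. A dimmer Omg probe, ILMN_1248920, passed as lower with -0.37 (SE 0.11, limma adjusted p 0.39).

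Of the lipid enzymes 4 of 7 fell. Ugt8a, which adds galactose to ceramide to make the main glycolipid of myelin, read 8474.6 and 7890.5 in the anterior and 4548.9 and 4465.4 in the posterior samples. Its difference of -0.86 had a standard error of 0.076 and a limma adjusted p of 0.035. Fa2h, which hydroxylates the fatty acids of that lipid, read 6114.8 and 5158.4 in the anterior and 3219.1 and 3398.6 in the posterior samples, with -0.76 (SE 0.068, adjusted p 0.035). Over the alternatives the adjusted p ranged from 2.9e-05 to 0.69 for Ugt8a and from 0.00016 to 0.69 for Fa2h, so that neither call held in all of them. Gal3st1, which sulfates it to sulfatide, had -0.61 (SE 0.14), and the fatty acid elongase Elovl1 had -0.37 (SE 0.096). All of these enzymes serve to make galactolipids with long or hydroxylated chains. The ceramide synthase Lass2 (now Cers2) and the breakdown enzymes Galc and Arsa did not pass by their brightest probes, with -0.093, -0.11 and 0.030. For Lass2 this depended on the probe. Its probe ILMN_2893992 passed as lower with -0.33 (SE 0.10, limma adjusted p 0.39), and ILMN_2893999 did not pass, with -0.13.

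Among the cytoplasmic and secreted proteins 8 of 18 fell, with a median of -0.25 and a range of -0.87 to 0.11. The 3 brightest of them did not pass, with -0.22 for Bcas1, -0.044 for Dbndd2 and -0.24 for Gpr17, a receptor of oligodendrocytes that are about to mature.

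Of the transcription factors 1 of 8 fell, a count too small to set against the background share. A negative difference was found for 7 of the 8, against 47.7% of all genes. Sox10 read 6388.1 and 4999.3 in the anterior and 4149.6 and 3805.7 in the posterior samples, a difference of -0.51 (SE 0.094, limma adjusted p 0.19). Olig1 had -0.24 (SE 0.11) and did not pass. Neither did Zfp488, Zfp536, Tcf7l2, Zfp191, Sox8 and Nkx2-2, which had values between -0.27 and 0.13 by their brightest probes. Dimmer probes of Sox8 (ILMN_2784686) and Nkx2-2 (ILMN_3129849) had 0.80 (SE 0.39) and 0.19 (SE 0.20) and did not pass either. Olig2, Nkx6-2 and Gm98, the array's name for Myrf, were not detected. Of the precursor markers, Pdgfra, the growth factor receptor of dividing precursors, was higher in the posterior lobes by 0.47 (SE 0.081, limma adjusted p 0.16). The matrix protein Bcan was lower with -0.51 (SE 0.16, limma adjusted p 0.39), and the other 6 of 8 did not pass. Pdgfra was the only one of the 8 that was higher. The other 7 had a negative difference, against 47.7% of all genes, and the median of the list was -0.15.

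**Figure D4:**
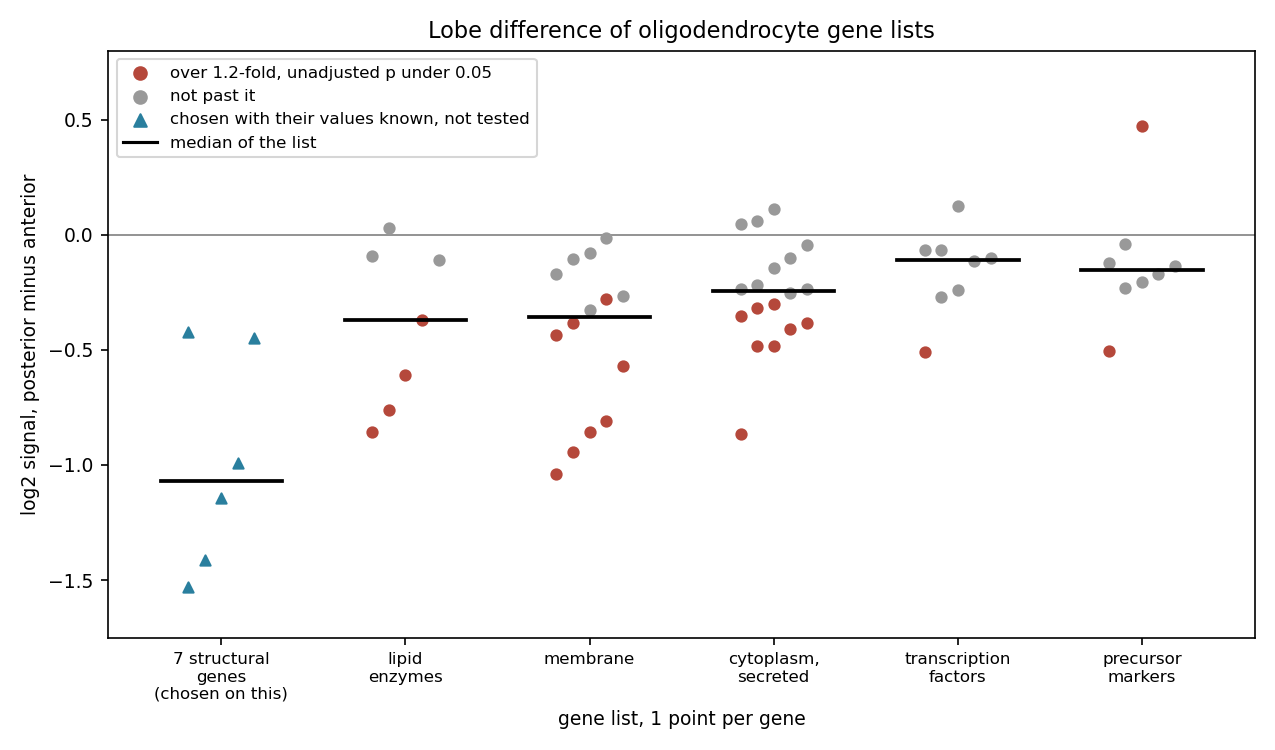
Log2 difference, posterior minus anterior, of each tested gene in 6 lists of oligodendrocyte genes, 1 point per gene by its brightest probe, with red for genes past a fold change over 1.2 and an unadjusted p under 0.05, grey for the others, blue triangles for the 7 genes, which were not tested, and a bar for the median. The medians lie at -1.07 for the 6 detected structural genes, -0.37 for lipid enzymes, -0.35 for membrane proteins, -0.25 for cytoplasmic and secreted proteins, -0.11 for transcription factors and -0.15 for precursor markers.

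Of 16 tested genes for axonal partners of the sheath, such as neurofilaments, Nogo receptor proteins and proteins of the node and paranode, 1 was lower and 1 higher past the criterion. These were the neurofilament Nefm with -0.50 (SE 0.20, limma adjusted p 0.49) and the potassium channel Kcna2 with 0.37 (SE 0.12, limma adjusted p 0.42). Such counts are too small to set against the 4.46% and 3.45% of all genes. The median was -0.12, and 11 of the 16 had a negative difference, against 47.7% of all genes. Both posterior samples lay below both anterior ones for 7, against 20.8% of all genes, and above them for 3. For Schwann cells, which make peripheral myelin, the defining genes Prx and Pmp2 were not detected, and neither of the 2 tested markers, Mpzl1 with -0.17 and Egr2 with 0.11, passed.

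The markers of other cells in the lobes were measured beside these results. None of 9 astroglial, 8 microglial and 7 Purkinje cell markers passed the criterion, and their medians were -0.0091, 0.063 and -0.11. The brightest of them were Slc1a3, Aqp4 and Gdf10 with 0.0044, -0.25 and 0.11, Cx3cr1, C1qb and C1qc with 0.034, 0.11 and 0.18, and Itpr1, Pvalb and Pcp2 with -0.067, -0.25 and -0.12. Their summed levels on the normalized linear scale ranged from 95403.9 to 96927 in the anterior and 92367.3 to 97869.6 in the posterior samples for astroglia. For microglia they were 4087.68 to 4844.31 and 4588.12 to 4817.36, so that both groups overlapped. The Purkinje list summed to 79377.5 and 82301.2 in the anterior and 73855.5 and 73910.3 in the posterior samples, so that its groups did not overlap. All 7 Purkinje markers had a negative difference, against 47.7% of all genes. For 4 of them both posterior samples were below both anterior ones, against 20.8% of all genes. Of the 9 granule cell markers, Zic2 was higher with 0.72 (SE 0.22, limma adjusted p 0.39), while its other tested probe had 0.14. Cntn6 was lower with -0.65 (SE 0.082, limma adjusted p 0.076), and the other 7 did not pass. A count of 1 in each direction is too small to set against the 3.45% of all genes that were higher and the 4.46% that were lower.

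Of 10 markers of meninges and vessels, 4 were higher past the criterion in the posterior lobes, against 3.45% of all genes. These were genes known from meningeal fibroblasts. Decorin (Dcn) had 0.93 (SE 0.071, limma adjusted p 0.024). Lum, Col3a1 and Igf2 had 0.51, 0.49 and 0.47, with limma adjusted p of 0.36, 0.34 and 0.33. The other tested Lum probe had 0.16. Col3a1 was near background and was detected on 3 arrays, at 141.6 and 110.9 in the anterior and 160.5 and 199.8 in the posterior samples. None of the vessel markers passed, with 0.20 for Cdh5, 0.069 for Tek, 0.056 for Cldn5 and -0.28 for Pecam1, and neither did the collagens Col1a1 with 0.52 and Col1a2 with -0.039. The summed level of the 10 genes was 22479.6 and 25629.2 in the anterior and 30510.3 and 33896.8 in the posterior samples. The choroid plexus list was uneven, with a sum of 1328 and 11369.5 in the anterior and 5662.71 and 7663.6 in the posterior samples. Of it 3 genes were tested, with -0.89 (SE 0.27) for Clic6, 3.82 (SE 0.18) for Otx2, which is also a regional gene of the posterior cerebellum, and -1.11 (SE 1.60) for Ttr, while its markers Folr1, Kl and Kcne2 were not detected. The part of these cells in the difference of the myelin genes was not tested.

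The probes of other genes with the profile nearest to that of the myelin genes were sought by the Euclidean distance of centred log2 values over the 4 arrays. Among the 8 nearest were Wdr16 (now Cfap52), Lrrc48 (now Drc3), Dmkn, Spag6, 2310007L24Rik (now Prr29), LOC381284 and 1700024G13Rik, at distances of 0.0673 to 0.129. They had differences between -1.09 and -0.95. Wdr16, Lrrc48 and Spag6 encode parts of motile cilia, which the ependymal cells lining the ventricle carry. With 4 arrays, this measure orders the probes by 3 free values and is a description.

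A list of 25 genes of motile cilia was therefore made after these values were seen, and was not tested. Of it 19 genes were measured. Their median difference was -0.70 and their range -1.30 to 0.087. Both posterior samples lay below both anterior ones in 15 of 19, against 20.8% of all genes, a count that follows from the choice of the list. Some of the 19, such as Wdr16, Iqcg and Ak7, were detected on 2 arrays only. Wdr16 read 203.6 and 193.2 in the anterior and 103.9 and 96.4 in the posterior samples. It thus passed the detection filter through the lobes where it was high. The summed level of the 19 genes was 11954.5 and 12398.5 in the anterior and 8721.01 and 7198.31 in the posterior samples. Rshl3, a radial spoke protein, had -1.30 and Dynlrb2, a dynein light chain, had -1.24, while Foxj1, the master regulator of motile cilia, had 0.087. Foxj1 was near background, at 163.5 and 147.2 in the anterior and 172.5 and 163 in the posterior samples, where a difference would be hard to see. The part of ciliated cells in the difference of the myelin genes was not tested.

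**Figure D5:**
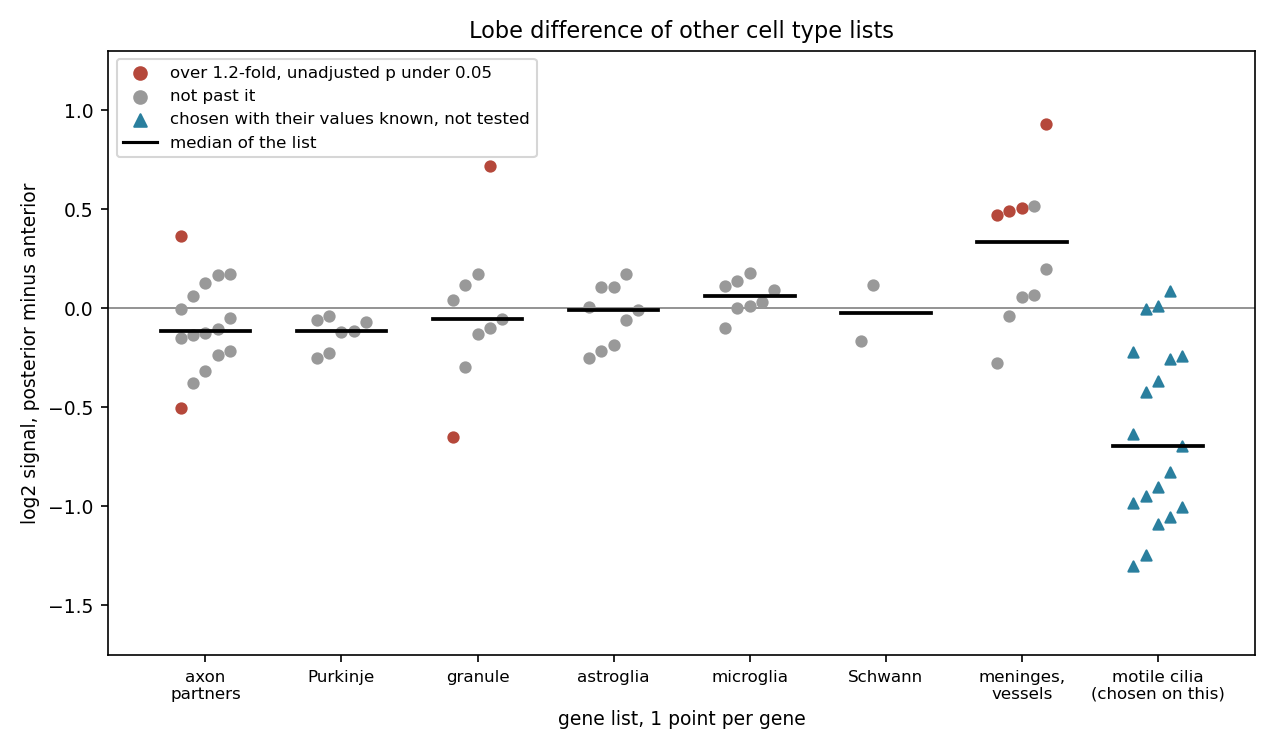
Log2 difference, posterior minus anterior, of each tested gene in 8 lists of other cell types, 1 point per gene by its brightest probe, with red for genes past a fold change over 1.2 and an unadjusted p under 0.05, grey for the others, blue triangles for the list of motile cilia, which was chosen with its values known and was not tested, and a bar for the median. The medians of axonal, Purkinje, granule, astroglial, microglial and Schwann cell lists lie between -0.12 and 0.063, while that of meninges and vessels lies at 0.33 and that of motile cilia at -0.70.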

How the data were processed

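Total RNA of each sample was hybridized to 1 Illumina mouse WG-6 v2.0 array. Per the file headers, the authors exported a mean intensity over the beads of every probe from GenomeStudio 1.9.0, neither normalized nor background subtracted. They also deposited a detection score as a fraction, and 1 minus it served as the detection p. Columns were matched to the samples by sample number, and 16 further columns were not used. Tested member probes rested on 24 to 72 beads per array, with a bead standard error of 2.12% to 6.95%.

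Quantile normalization was applied over the 4 arrays, values under 1 were set to 1, and log2 was taken. Probes with a detection p under 0.05 on at least 2 arrays were tested in R 4.3.3 by limma 3.58.1, using lmFit followed by eBayes with its trend option, with Benjamini-Hochberg adjustment over all 21726 probes. The criterion was the study's: a fold change over 1.2 and an unadjusted p under 0.05. Genes of the lists were represented by their tested probe with the highest mean log2 signal. The steps were tested on simulated data. RefSeq held 22024 (71.4%) of the 30854 array symbols and all 7 members, and gave current names.

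Named were every probe of the 7 genes, every tested gene of the membrane, lipid and transcription factor lists, of the other lists the genes past the criterion or, where none or over 6 passed, the 3 brightest, and the 8 nearest profiles; Foxj1, Rshl3, Dynlrb2 and the vessel and collagen markers that did not pass were chosen after their values were seen. Some genes that this rule names are not reported here. The members and lists were chosen with earlier results of these data known. Alternatives were other normalizations (none, common 75th percentile, cyclic loess, neqc), detection limits, no filter, no intensity trend, adjusted p, a fold of 1.5, any probe of a gene, the methods' t-test, the replicate block, no lobe covariate and leaving out each array.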

Additional observations from a re-analysis of the deposited data

How the results depend on the processing

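The median difference of the tested myelin gene probes, -1.12, ranged from -1.03 to -1.18 when each array was left out (-1.08 without anterior replicate 2), and was -1.26 with neqc, which subtracts background, and -1.05 without the detection filter, over all 20 probes. The drops of dim probes grew with neqc, such as those of the tested Mal probes, to -1.86 and -1.66. The brightest Mbp probe and the Cldn11 probe stayed at -0.45 and -0.42. Sizes of the drop are thus not on 1 scale for dim and bright probes. No tested probe of these genes changed sign in 208 values under the alternatives. Over the 21 called companion genes, 266 of 294 values stayed past the criterion in the same direction, and the other 28 kept the direction only.

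The count of 21 companion genes became 2 at an adjusted p under 0.05 and 8 at a fold over 1.5, and leaving out each array gave 13 to 26. The 1 probe that differed between replicates became 0 at an adjusted p, 0 without normalization and 0 without the lobe covariate. The 1802 probes past the criterion became 741 with the methods' t-test, and leaving out each array gave 766 to 4677, with 4677 without anterior replicate 1, 766 without posterior replicate 1, and 811 without posterior replicate 2; a lone array is then assumed to vary like those of the other lobe. Of these probes 39.7% were higher in the posterior lobes, and 53.5% with the common 75th percentile. Pmp22 (PMP22) had 0.32 without anterior replicate 1 and -0.35 without anterior replicate 2, and the potassium channel Kcna1 (KCNA1) had 0.62 and -0.36, against 0.13 over all arrays. The cause of these moves was not tested.

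The labels do not say that a replicate number marks shared animals. Deviations of samples sharing a number correlated with r = 0.46, and a fit with the replicate block gave 2818 probes past the criterion, 23 companion genes (11 at an adjusted p under 0.05) and an unchanged median of -1.12. Leaving out an array was not run for the replicate difference, which leaves no residual degree of freedom. A difference in Aspa was not detectable at the background of these arrays.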
